A study of Mus musculus with 8 samples.

Results

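The cytosolic ribosomal proteins and the factors that start and elongate translation were examined in sorted Sox9-lineage cells of the mouse vertebral column. Members were all genes whose symbol begins with Rpl, Rps, Eif or Eef followed by a digit, without the Rps6k kinases, and this gave 109 of the 8102 genes that could be named on the array. Of these, 107 had an intensity, carried by 125 of the 46643 probes, and each gene was represented by its brightest probe. The Eif5b and Eif2s3y probes could not be joined to an intensity and are not analysed here. The 107 members comprised 71 ribosomal proteins, 28 genes with an Eif symbol and 8 genes with an Eef symbol. The symbol rule also took in a few genes that act on these factors rather than in translation itself, such as the kinase gene Eif2ak1 and the methyltransferase genes Eef1aknmt and Eef2kmt.

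A ribosome is built from a small and a large subunit, each a core of ribosomal RNA covered by proteins encoded by the Rps and Rpl genes. Initiation factors bring the initiator tRNA and the small subunit to the capped end of an mRNA and find the start codon, and elongation factors then deliver aminoacyl tRNAs and move the ribosome along. The mRNAs of vertebrate ribosomal proteins and elongation factors typically begin with a run of pyrimidines, the terminal oligopyrimidine tract, through which their translation is regulated by the kinase mTOR. Proliferating embryonic cells, chondroprogenitors among them, rank these transcripts among their most abundant.

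Cells were taken from the vertebral column of E12.5 embryos of strain C57BL/6J;129 and sorted for EGFP expressed from the Sox9 locus, with 4 arrays per genotype. In WT embryos, which were heterozygous for the tagged allele, EGFP followed Sox9 through an IRES and the Sox9 protein stayed intact. In HOMO embryos EGFP replaced Sox9, and chimaeric embryos were used because homozygotes do not survive to this stage, so the HOMO cells came from embryos that also held host cells. The labels do not say how many embryos each array pooled or whether the arrays came from separate litters, so p-values measure the spread between arrays. Over all probes the WT arrays averaged 328.9 ± 33.1 intensity units (SD, n = 4), 41.7 times the 7.88 ± 2.43 of HOMO (SD, n = 4), and every HOMO array was dimmer than every WT array. Overall signal, chimaeric origin and genotype therefore cannot be told apart. Sox9 had no probe that could be named, so the targeted gene could not be checked. The EGFP probe was detected on the WT arrays, at 92.4 to 116.6, and not on the HOMO arrays, at -5 to -1.1. Of the cartilage matrix markers 7 of 16 had a probe, and they took 1030 to 1549 ppm of the summed intensity in WT and 93.8 to 146 in HOMO, where Mia, Col9a2, Sox6 and Col11a1 were not detected. Neuron markers (10 of 12 with a probe) took 313 to 815 ppm in WT and 117 to 176 in HOMO. Erythroid markers (4 of 8) took 193 to 443 in WT and 118 to 1386 in HOMO, macrophage and leukocyte markers (5 of 8) 2.43 to 11.6 and 26.6 to 48.5, and endothelial markers (3 of 7) 13.2 to 44.5 and 64.6 to 74.7. The part of other cell types in the results below was not tested.

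The start regions of the ribosomal protein genes often carried pyrimidine runs, at varying distances from the annotated start. RefSeq start sites (GRCm38.p6) were listed for 82 of the 109 members. In the 80 bases from 30 before to 50 after an annotated start, a run of at least 8 consecutive C or T on the transcribed sense strand was found in 43 of 53 ribosomal protein genes (81.1%), in 3 of 6 Eef genes and in 5 of 23 Eif genes (21.7%). The share over all 27025 genes with an entry was 32.3%. On the opposite strand the same kind of run was found in 17% of the ribosomal protein genes and in 35.2% of all genes. The hexamer CTTTCC, itself made of C and T and so overlapping such runs, was present on the sense strand in 32.1% of the ribosomal protein genes and in 4.36% of all genes, and on the opposite strand in 3.77% and 4.23%. These are matches of letters near annotated starts, which can lie some bases from the start used in these cells. The windows below were chosen to show the runs of genes described further on, from those that kept much or little of their intensity in HOMO to others in between, and capitals mark the longest run of C and T.
Rpl27a: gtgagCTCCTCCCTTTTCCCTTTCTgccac
Rpl37: gcgggggtgCTTTCTCTTCCggtctctttg
Rpl11: cggaagTCTCCCTCTCTCTTCCTgttctcc
Rpl13: cgtgacgtcaCTTCCCTTTCgcctgatttt
Rpl35a: ggggcttgCCTTCCTCTTTCCgccatcttg
Rps12: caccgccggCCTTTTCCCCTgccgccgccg
Rps6: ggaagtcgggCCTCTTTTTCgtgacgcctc
Eef2: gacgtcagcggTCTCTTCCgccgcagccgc
Eif4a3: gcttgcagttgTCTTTCTgcggaatccgga
The Rpl27a window lies at chr7:109519186-109519215 on the plus strand and its run of 20 bases begins 4 bases before the start. Rpl37 and Rpl11, at chr15:5116632-5116661 (plus) and chr4:136053357-136053386 (minus), held runs of 11 and 17 bases. The Rpl13 window at chr8:123102324-123102353 (plus) and the Rps6 window at chr4:86857349-86857378 (minus) each held a run of 10 bases. The runs of Rpl35a at chr16:33056469-33056498 (plus) and Rps12 at chr10:23787181-23787210 (minus) measured 13 and 11 bases. Eef2, at chr10:81176634-81176663 (plus), had a run of 8 bases. The run in Eif4a3 at chr11:119299999-119300028 (minus), a gene with an Eif symbol shown for contrast, was 7 bases long and so below the length counted. With the annotated start as base 1, the runs of Rpl37, Rpl11, Rpl35a, Rps12, Eef2 and Eif4a3 began at bases 29, 14, 25, 9, 15 and 27. Those of Rpl13 and Rps6 began 16 bases and 1 base before the start. Only the runs of Rpl27a and Rps6 spanned the annotated start.

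In WT cells these genes filled the top of the intensity range. Detection was read from the deposited detection values, and a probe was called detected above 0.95, which is a detection p below 0.05. On the 4 WT arrays 101 of the 107 members (94.4%) were detected on every array, against 63.4% of all named genes and 39.9% of all probes. The median member lay at the 99.27th to 99.32th percentile of all probes on each WT array. Between 28 and 31 members were among the 100 brightest probes of each WT array, and the members carried 6.58% to 7.39% of the summed intensity. Ribosomal proteins made up nearly all of this share, 5.97% to 6.78%, and the factors 0.598% to 0.622%. Intensity also depends on how well each probe binds, so the order of different genes is an order of probes and not of transcript numbers. Many ribosomal protein genes have processed pseudogenes and close paralogues, and signal from such copies cannot be separated here.

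The 10 members with the highest WT percentile were 9 ribosomal proteins and Eef1g. Rpl41, which encodes the smallest ribosomal protein, read 38645, 38282, 35923 and 41213 on the WT arrays. Rps27a, which encodes a ribosomal protein fused to ubiquitin, read 39673, 35680, 36133 and 41262. Both had a mean percentile of 99.99 and exchanged the lead from array to array. Rps20, a protein of the small subunit head, followed at 33508, 32543, 29343 and 34114. Eef1g, a subunit of the exchange factor that recharges elongation factor 1A with GTP, read 33211, 31255, 28936 and 32998. Rpl24, Rps29, Rps14, Rpl23, Rpl37 and Rpl27a completed the list, with WT means between 28030 and 31300. Within WT the small subunit proteins ranged from 3.53 to 38187 around a median of 18489, and the large subunit proteins from 1.65 to 38516 around a median of 12319. The Eif genes had a median of 798.5, with Eif1, the factor that guards start codon fidelity, highest at 6188 ± 1770 (SD, n = 4).

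Only Rps18 and Rpl18 were detected on no WT array. Rps18 read 4, 13, 5 and -8 when rounded to whole units in WT and was not detected in HOMO. Rpl18 read 3, -2, 4 and 1 in WT and was detected on 1 HOMO array. Both encode core subunit proteins, and whether the probes or the transcripts account for these values was not tested. Eif4a2 was detected on 2 WT arrays, Eif2s1 on 1, and Rps19 and Eef2kmt on 3.

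**Figure D1:**
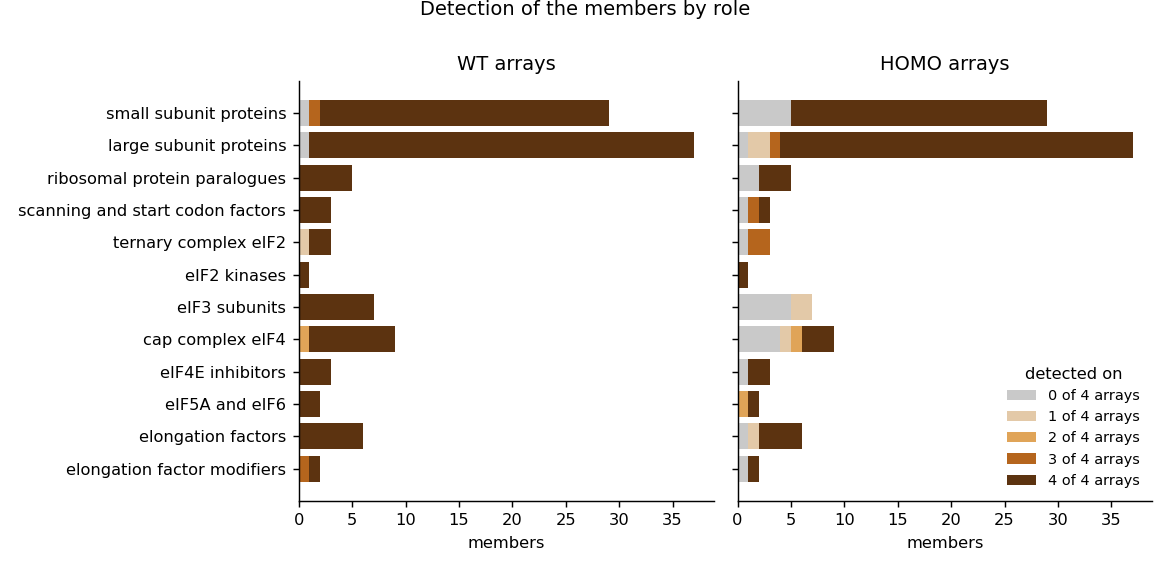
Number of members, by role, detected on 0 to 4 of the 4 arrays of each genotype (x axis, members). In WT 101 of 107 members were detected on all 4 arrays; in HOMO 73 were, where none of the 7 eIF3 subunits and 33 of 37 large subunit proteins were detected on every array.

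On the HOMO arrays 73 members (68.2%) were detected on every array, against 21.6% of named genes and 12.4% of all probes, and 22 members were detected on none. Of the named genes detected on all 4 WT arrays 44% were detected on no HOMO array, and of all such probes 51.1%. By role, detection on every HOMO array covered 24 of 29 small subunit proteins, 33 of 37 large subunit proteins and 8 of 28 Eif genes. The median member stayed at the 98.95th to 99.07th percentile of each HOMO array, and 29 to 31 members were among its 100 brightest probes. The members carried 9.34% to 9.56% of the summed intensity, above the range of the WT arrays. The ribosomal protein share was 8.73% to 8.89% and again lay wholly above WT, while the factor share of 0.602% to 0.714% overlapped it. These shares were sums over positive intensities, so on arrays where most probes were near background they also move with how many other probes were detectable.

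The comparison of HOMO with WT asked which transcripts depend on Sox9. The loss of intensity was first expressed as the HOMO mean in percent of the WT mean, for the 77 members detected on at least 3 arrays of each genotype. This share ran from 0.31% for Eif1 to 8.59% for Rpl11, with a median of 3.02%. Expressed as a fold, the members were 11.6 to 322.7 times dimmer in HOMO, with a median of 33.1, against a median of 29 over all probes measured in both. A probe that is dim in WT can only be measured in HOMO if it lost little, so the members were also set beside other probes of like WT intensity. Between 100 and 1000 units in WT the median share was 2.64% for the 6 members measured in both and 3.92% for 2347 other probes, and between 1000 and 3000 it was 1.95% for 8 members and 1.73% for 1761 others. Between 3000 and 10000 units in WT the median share was 2.3% for 16 members and 1.73% for 707 other probes. Between 10000 and 20000 it was 2.62% for 30 members and 2.33% for 122 others, and between 20000 and 50000 it was 3.9% for 17 members and 3.67% for 50 others. The interquartile ranges overlapped in each class and ran from 1.05% to 3.45% for members and 1.13% to 2.64% for others between 3000 and 10000 units.

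**Figure D2:**
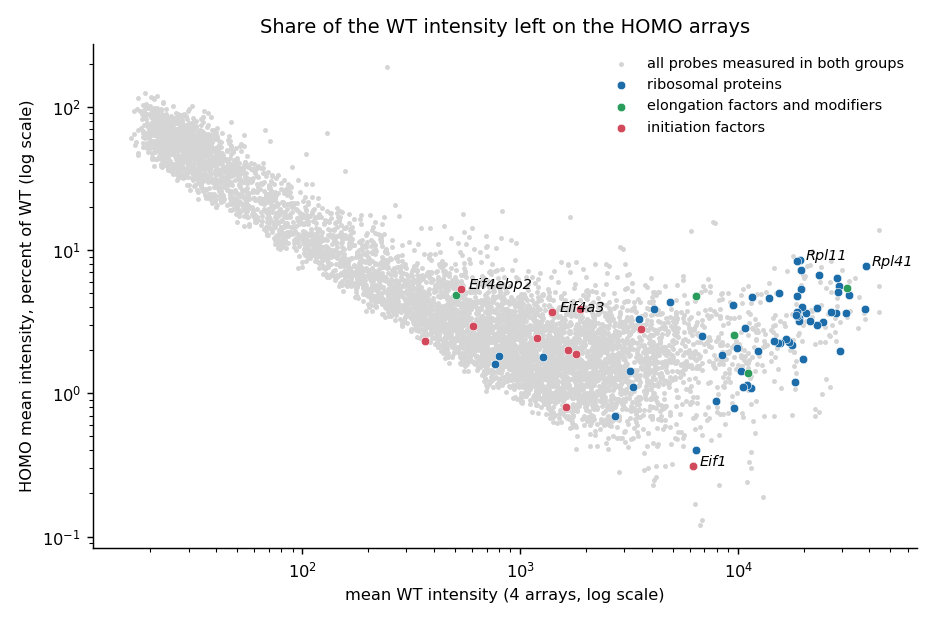
Mean HOMO intensity in percent of WT (y axis, log scale) against mean WT intensity (x axis, log scale) for the members and all probes detected on at least 3 arrays of each genotype. Members lay between 0.31% and 8.59%, most of them at the bright end, within the cloud of the other probes.

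Rpl11 and Rpl13 kept the largest share. Rpl11, a large subunit protein that also binds the p53 regulator Mdm2, read 20308, 17843, 17135 and 21407 in WT and 2054, 1402, 1251 and 1884 in HOMO. Rpl13 read 20604, 18444, 16958 and 18521 in WT and 1881, 1436, 1137 and 1807 in HOMO, 8.4% of WT. Neither was among the 10 highest members in WT, and both reached HOMO percentiles of 99.97 and 99.96. The ratio of Rps29 to Rpl11 on the same array was 1.39 to 1.65 in WT and 0.318 to 0.401 in HOMO. Probe and gene cannot be told apart in this ratio, since the probes of a single gene, Rps9, kept 7.25% and 1.09%. Rpl41 kept 7.73%, with HOMO values of 3474, 2742, 2431 and 3263.

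Eif1 stood at the other end, with 7234, 8054, 4193 and 5272 in WT and 31.1, 11.3, 7.8 and 26.5 in HOMO, where it was detected on 3 arrays. Rpl6 kept 0.402%, from 7080, 8514, 4364 and 5558 to 54.7, 8.7, 4.9 and 34.4, and was likewise detected on 3 HOMO arrays. Both Eif1 and Rpl6 spread widely within WT, where replicate 2 was highest and replicate 3 lowest. Rpl35a, at 12131, 12687, 9436 and 11543 in WT and 165.9, 95.7, 86.1 and 154.2 in HOMO, kept 1.1%. Rps12 was close to it, with 10266, 12920, 8115 and 10635 in WT, 177.3, 96.1, 68.9 and 122.8 in HOMO and 1.11% kept. All 4 genes kept less than Rpl11 and Rpl13, and the HOMO arrays lay below the WT arrays throughout.

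**Figure D3:**
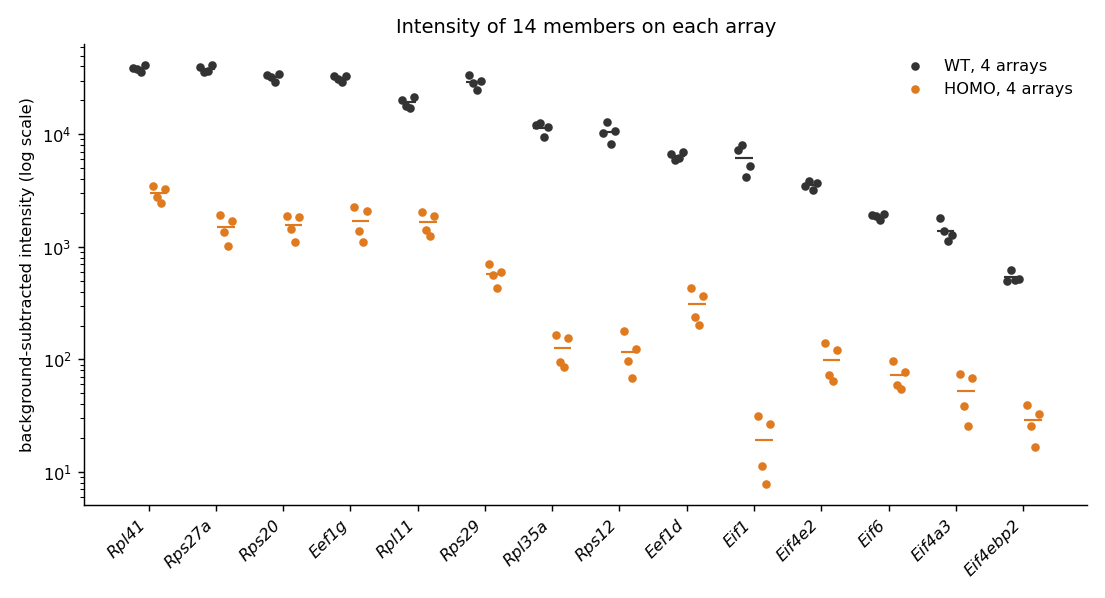
Background-subtracted intensity (y axis, log scale) of 14 members on each WT and each HOMO array, with the group means as short lines. All HOMO values lay below all WT values of the same member, and the size of the drop differed, from 8.59% of WT kept by Rpl11 to 0.31% kept by Eif1.

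After normexp correction and quantile normalization, the genotypes were compared with limma over 21002 probes detected on at least 3 of the 8 arrays. Of 103 members tested, 42 were called lower in HOMO and 19 higher at a Benjamini-Hochberg adjusted p of at most 0.05, where 48.5% of all kept probes were lower and 24.8% higher. The 19 higher calls belong to the quantile scale: after centring on array medians no member was higher and 103 were lower, with the authors' normalized values none was higher and 97 were lower, and with the methods' test 104 of 107 were lower and 1 was higher, Rpl18, which was not detected in WT. Lower calls also prevailed over all probes on these scales. Among all called probes the higher ones made up 4.26% after median centring, 18.1% with the authors' values and 19.7% in the methods' test. On the quantile scale they made up 33.9%. The median difference over all kept probes was -0.56 on the quantile scale, -2.26 after median centring, -1.83 with the authors' values and -0.45 in the methods' test. The median member differed by -0.26. Differences below are log2 values, HOMO minus WT, on the quantile scale with their SE. The groups did not overlap for 46 members that were below WT and 21 above it, where 69.8% of all kept probes did not overlap. Of the 42 lower calls, 17 were of members detected on no HOMO array, where over all kept probes it was 7949 of 10185. Among the 77 members measured in both genotypes, 19 were lower, 19 higher and 39 not called, where 16.3% of all probes measured in both were lower and 51.9% higher. Their median difference was -0.03, against 0.57 over all such probes, many of which were dim in WT. Set by WT intensity, the median was -0.16 for members and 0.65 for other probes measured in both between 100 and 1000 units. From 1000 to 3000 units it was 0.1 and -0.21, and from 3000 to 10000 it was -0.02 and -0.22. From 10000 to 20000 it was -0.11 and -0.2, and from 20000 to 50000 it was -0.1 and -0.22.

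The within-array percentile does not depend on how arrays are scaled to each other. Among the 77 members, all 4 HOMO percentiles lay above all 4 WT percentiles for 21 (27.3%) and below them for 24 (31.2%), where the shares over all probes measured in both were 50.4% and 17%. These shares were not matched for WT intensity, whose median was 9442 for the members called higher and 119 for all probes called higher. Members near the top of an array also have little room to rise. Of the 19 members called higher, 18 separated upwards, and of the 19 called lower, 18 separated downwards. The quantile-normalized level follows the same rank on each array, so this agreement was nearly fixed in advance and adds no separate evidence. A separated percentile gives p = 0.0286 in the two-sided exact permutation test over 4 and 4 arrays, the smallest p that test can give.

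**Figure D4:**
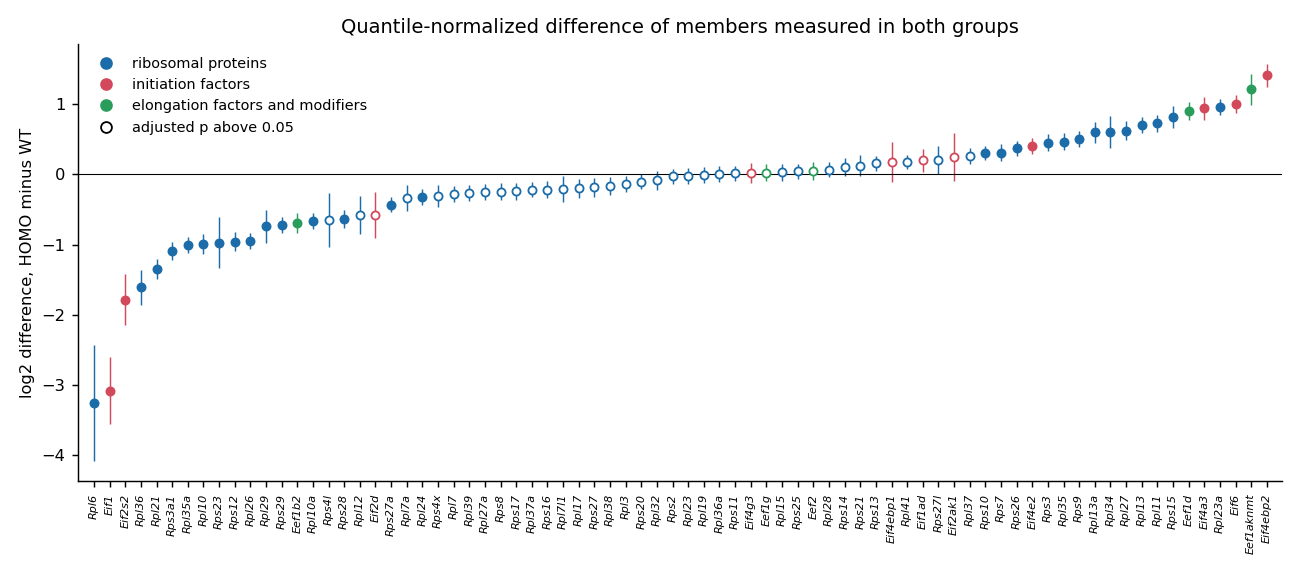
Log2 difference, HOMO minus WT, with SE, on the quantile-normalized scale for members measured in both genotypes; filled points passed an adjusted p of at most 0.05 in limma. The values ran from -3.26 for Rpl6 to 1.41 for Eif4ebp2; no member was called higher after median centring or with the authors' values, and in the methods' test Rpl18, not plotted here, was the 1 called higher.

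Among the small subunit proteins, 9 of 28 tested were lower and 6 higher, where 48.5% of all kept probes were lower and 24.8% higher. Rps3a1, which lies near the mRNA exit, was lower, at -1.09 ± 0.13 (adjusted p = 8.4e-05, limma), from 8696, 8552, 6040 and 8299 to 95.1, 50.5, 49.1 and 84.5. Rps12 was lower, at -0.96 ± 0.13 (adjusted p = 0.00023, limma). Rps29, a zinc-binding protein of the small subunit, was lower, at -0.72 ± 0.12 (adjusted p = 0.00069, limma), from 33414, 28763, 24838 and 29690 to 702.7, 562.6, 432.2 and 599.9. In each of these the HOMO arrays lay below the WT arrays on the normalized scale. Rps27a was lower, at -0.43 ± 0.11 (adjusted p = 0.0069, limma), whereas Rps20 and Rps14 gave -0.1 ± 0.11 and 0.11 ± 0.13 and were not called.

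Rps6, the small subunit protein phosphorylated by S6 kinases, was the brightest member detected on no HOMO array and was chosen after its values were seen. It read 2844, 3432, 1937 and 2740 in WT and 4.9, 2.7, -2.2 and 1.6 in HOMO. On the normalized scale its WT level was at least 10.3-fold above the lowest detected level of the HOMO arrays (adjusted p = 4.5e-07, limma). Rps23, of the same subunit and with a WT intensity near that of Rps6, at 3296 ± 402 (SD, n = 4), gave 36.5 ± 19.8 in HOMO. Rps24, at 486 to 562 in WT, was also detected on no HOMO array and was lower by at least 2.08-fold. With a WT mean from 1000 to 3000 units, 20% of 15 members and 10.2% of 2295 other probes were detected on no HOMO array. From 100 to 1000 units it was 57.1% of 21 members and 53.5% of 8773 other probes.

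Among the large subunit proteins, 11 of 36 tested were lower and 7 higher, beside 48.5% lower and 24.8% higher of all kept probes. Rpl35a and Rpl21 were lower, at -1 ± 0.11 (adjusted p = 5.1e-05, limma) and -1.35 ± 0.15 (adjusted p = 4.7e-05, limma). Rpl21 had read 9420, 11779, 7167 and 9993 in WT and 124.1, 52.2, 40.3 and 88.5 in HOMO. Rpl23a, which sits at the exit of the peptide tunnel, went the other way on this scale, at 0.96 ± 0.11 (adjusted p = 7.4e-05, limma), and was lower, at -3.82 after median centring, -1.06 with the authors' values and -2.3 in the methods' test. Its intensities were 5241, 4907, 4246 and 5074 in WT and 285.9, 178.4, 141.5 and 239.4 in HOMO. The ratio of Rpl21 to Rpl23a on the same array is not altered by scaling an array by a constant. It was 1.69 to 2.4 in WT and 0.285 to 0.434 in HOMO. This pair and the others set side by side in this way were chosen after their values were seen. Probes of a single gene, Rps9, differed 6.64-fold in the share kept, so a difference between these probes cannot be told from one between the genes. Rpl41, Rpl23, Rpl37 and Rpl27a, all among the brightest, gave 0.18 ± 0.1, -0.02 ± 0.11, 0.26 ± 0.12 and -0.25 ± 0.11 and were not called. Rpl24 was lower, at -0.32 ± 0.12 (adjusted p = 0.036, limma), a call lost on leaving out any array other than WT replicate 1 (adjusted p = 0.0501 to 0.0956).

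Of the 5 ribosomal protein paralogues, none was called higher, and Rpl22l1 and Rpl36al, neither detected in HOMO, were lower. Over all kept probes 48.5% were lower and 24.8% higher. Rps27l, a p53-induced copy of Rps27, read 6024, 6491, 7257 and 7432 in WT and 199.4, 164.3, 144.7 and 178.5 in HOMO. Its partner Rps27 read 17960, 15224, 16528 and 16736 in WT and 490.6, 352.9, 292.7 and 449.5 in HOMO. Neither was called, at 0.21 ± 0.2 and -0.18 ± 0.13. Rpl7 and Rpl7l1 gave -0.28 ± 0.12 and -0.21 ± 0.19 and were not called. Rpl36a gave 0.01 ± 0.11 at 17752 to 20617 in WT, and Rpl36al, at 125 to 190 in WT, had HOMO values of -4.7 to 0.5. Rps4l, at 740 to 833 in WT and 8.5 to 24.6 in HOMO, gave -0.65 ± 0.39 and was not called.

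Of 26 Eif genes tested, 16 were lower, 4 higher and 6 not called, where 48.5% of all kept probes were lower and 24.8% higher. Their median difference was -2.05, and 10 of the 16 lower calls were of genes detected on no HOMO array. Over all kept probes this held for 7949 of 10185 lower calls. Among the 11 Eif genes measured in both genotypes 2 were lower, 4 higher and 5 not called. Over all probes measured in both, 16.3% were lower and 51.9% higher. The median difference of the 11 genes was 0.2 on the quantile scale, against 0.57 over all such probes. The 4 called higher were lower after median centring, with the authors' values and in the methods' test. The eIF3 complex, a scaffold that binds the small subunit and recruits mRNA, was detected in WT and almost not in HOMO. All 7 subunits with a probe were detected on every WT array, and none was detected on more than 1 HOMO array. Eif3a, named after its values were seen like the rest of this complex, read 1177, 1686, 850 and 1124 in WT and 3.9, 1.8, -3.3 and 3 in HOMO, at least 4.53-fold lower (adjusted p = 6.2e-07, limma). Eif3c, at 1593, 1800, 815 and 853 in WT, was detected on 1 HOMO array and was called lower (adjusted p = 4.7e-05, limma) with no exact size. Eif3e, Eif3h and Eif3m were lower by at least 2.78-, 1.48- and 1.38-fold. Eif3j1 was called lower with no bound, because its WT level did not exceed the detection limit of the HOMO arrays, and Eif3g, detected on 1 HOMO array, gave -0.99 ± 0.7 and was not called. These genes were dim beside the ribosomal proteins, at 175 to 1800 in WT. Of all other probes with a WT mean from 100 to 1000 units, 53.5% were detected on no HOMO array, and of those from 1000 to 3000 units 10.2% were.

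The eIF4 cap complex, which recognises the cap and unwinds the leader, was mixed. Eif4e2, a cap-binding homologue associated with repression, read 3466, 3861, 3227 and 3705 in WT and 140.1, 72, 64.2 and 121.6 in HOMO. Its difference was 0.4 ± 0.11 (adjusted p = 0.011, limma), and -4.38, -1.72 and -2.96 after median centring, with the authors' values and in the methods' test. Eif4e, which encodes the canonical cap-binding protein, read 362, 432, 367 and 429 in WT and was detected on no HOMO array, at least 1.62-fold lower. Eif4e3 was at least 1.84-fold lower by its brightest probe. Its other probe, at 94.7 to 110.7 in WT and detected on 2 HOMO arrays, gave 1.04 ± 0.55 and was not called. Of the helicases, Eif4a1 read 2988, 3194, 1964 and 2255 in WT and 11.3, 4.1, 7.2 and 14.2 in HOMO, where it was detected on 2 arrays, and was called lower (adjusted p = 0.00023, limma) with no exact size. Eif4a3, which belongs to the exon junction complex, gave 0.94 ± 0.17 (adjusted p = 0.00096, limma) on the quantile scale and -3.82, -1.34 and -2.58 on the other scales. It read 1788, 1392, 1116 and 1285 in WT and 74.8, 38.8, 25.6 and 68.6 in HOMO. Of the scaffolds, Eif4g3 gave 0.02 ± 0.15 and was not called, and Eif4g2, at 616 to 1392 in WT, was at least 3.22-fold lower.

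Of the genes that restrain eIF4E, Eif4ebp1 was measured at 1258, 980, 1094 and 1432 in WT and at 42.3, 16.2, 17.7 and 38.9 in HOMO, a difference of 0.18 ± 0.29 that was not called. Eif4ebp2 read 499, 617, 510 and 512 in WT and 39.2, 25.8, 16.8 and 32.9 in HOMO, 5.36% of WT. Its difference of 1.41 ± 0.17 (adjusted p = 8e-05, limma) was the highest of any member on the quantile scale, and it was -3.06, -0.77 and -2.01 on the other scales. On the quantile scale, probes other than members with 100 to 1000 units in WT had a median of 0.65, and 1179 of the 2347 measured in both were called higher. Eif4ebp3, at 117 to 140 in WT, was detected on no HOMO array.

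Among the scanning factors, Eif1 was lower, at -3.08 ± 0.47 (adjusted p = 0.00043, limma) and its percentile fell from 99.12 ± 0.21 to 89.92 ± 5.43 (SD, n = 4; exact permutation p = 0.0286). Eif5, which prompts GTP hydrolysis by eIF2, was at least 3.88-fold lower. Eif1ad gave 0.2 ± 0.16 and was not called. Of the eIF2 subunits that carry the initiator tRNA, Eif2s2 was lower, at -1.78 ± 0.36 (adjusted p = 0.0022, limma), from 1627, 1646, 1534 and 1654 to 15.8, 14.5, 6 and 15.8. Eif2d gave -0.58 ± 0.33 and the kinase gene Eif2ak1 0.25 ± 0.34, and neither was called. Eif5a, which relieves stalls at proline stretches, read 3259, 3353, 2104 and 2438 in WT, was detected on 2 HOMO arrays and was called lower (adjusted p = 0.0011, limma) with no exact size. Eif6, which keeps the large subunit from joining early, gave 1.01 ± 0.13 (adjusted p = 0.00014, limma) on the quantile scale and -3.82, -1.22 and -2.46 on the other scales, with 1898, 1892, 1728 and 1957 in WT and 96.4, 59.4, 54.5 and 77.9 in HOMO.

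The Eef genes gave 4 lower and 2 higher calls of 8, shares close to the 48.5% and 24.8% of all kept probes. Of the 4 lower calls 1 was of a gene measured in both genotypes, against 1090 of 10185 over all kept probes. The probes of the eEF1B exchange complex, 1 for each subunit, did not move together: Eef1b2 was lower, at -0.69 ± 0.14 (adjusted p = 0.0021, limma), Eef1g gave 0.02 ± 0.12 and Eef1d 0.91 ± 0.13 (adjusted p = 0.00026, limma). They kept 1.38%, 5.4% and 4.81% of WT, while similarly bright probes of a single gene, Rps9, kept 7.25% and 1.09%. A difference between probes therefore cannot be told from a difference between subunits. Under median centring, the authors' values and the methods' test Eef1d was at -3.72, -0.93 and -2.17. Eef1b2 read 11225, 14367, 8896 and 9932 in WT and 214.6, 132.8, 105.7 and 161.7 in HOMO. Eef1d read 6640, 5909, 6193 and 6950 in WT and 430.9, 236.5, 201.5 and 365.7 in HOMO. Their ratio on the same array, Eef1b2 over Eef1d, was 1.43 to 2.43 in WT and 0.442 to 0.562 in HOMO. Eef2, the translocase, gave 0.05 ± 0.13 and was not called. The probe for Eef1a1, which carries aminoacyl tRNA to the ribosome and is known as one of the most abundant proteins of a cell, read only 410, 648, 272 and 572 in WT, and that for its muscle and neuron paralogue Eef1a2 read 131, 138, 46 and 64. Eef1a1 was detected on 1 HOMO array and Eef1a2 on none, and both were called lower, with no size given because the HOMO readings were mostly not detected. Eef1aknmt, a methyltransferase of eEF1A, gave 1.21 ± 0.22 (adjusted p = 0.0011, limma) and -3.13, -0.92 and -2.16 on the other scales.

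Probes of the same gene often disagreed. Of 15 genes with more than 1 tested probe, 6 had the same call on each probe and 4 had both a lower and a higher call, namely Rps3, Rps9, Eif4e2 and Eef1aknmt. The Rps9 probes read 16852 to 21063 and 12992 to 21185 in WT, a similar brightness. In HOMO they read 1021 to 1867 and 107.2 to 240.4, so that one kept 7.25% and the other 1.09% of WT. On the quantile scale, the one scale of those tried on which Rps9 was called higher, their differences were 0.5 ± 0.11 (adjusted p = 0.0033, limma) and -1.07 ± 0.17 (adjusted p = 0.00047, limma). The Rps3 probes read 12483 to 15296 and 8830 to 13526 in WT and kept 4.62% and 0.838%, with differences of 0.45 ± 0.13 and -1.33 ± 0.12 on the same scale. The Rpl27a probes kept 3.65% and 1.79%, and of 3 Eef2 probes the brightest kept 2.57%, another 1.33%, and the remaining one, at 1490 to 2189 in WT, was detected on no HOMO array. The Rpl23 probes went the other way, with 5.11% kept by the bright one and 24.1% by a dim one that read 33.5 to 73 in WT and was detected on 3 HOMO arrays. The share kept thus differed 6.64-fold between the probes of Rps9 and 5.51-fold between those of Rps3, and which probe reports the gene was not tested.

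**Figure D5:**
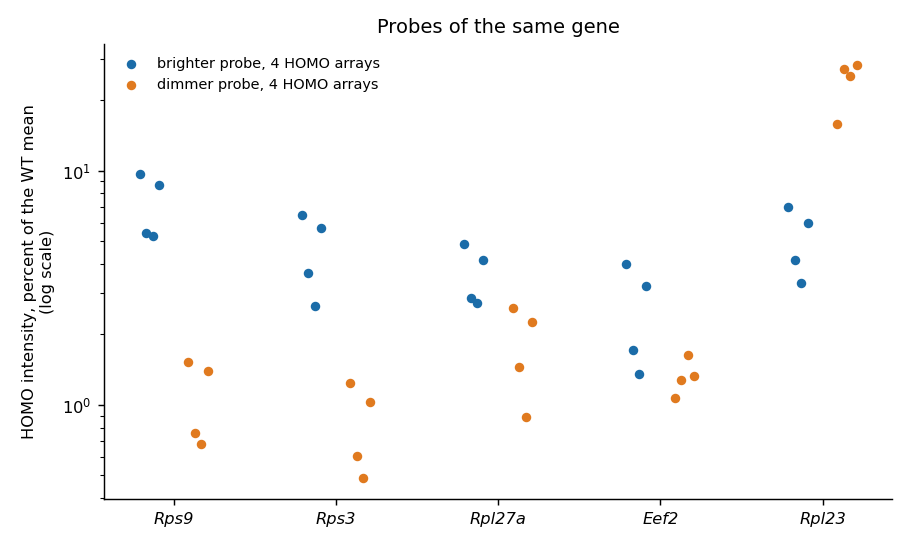
Intensity on each HOMO array in percent of the WT mean (y axis, log scale) for pairs of probes of 5 genes. For Rps9 and Rps3 all 4 HOMO values of the brighter probe lay above those of the dimmer one, 7.25% against 1.09% and 4.62% against 0.838% on average.

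The members also differed in how closely the WT arrays agreed, and this went with the share kept in HOMO. Across the 77 members, the WT coefficient of variation and the percent of WT kept in HOMO had a Spearman rho of -0.5, where all points share the same 8 arrays and genes are not independent replicates. The rho over all probes measured in both was 0.22, and with a WT mean of at least 1000 it was -0.58 for 71 members and -0.27 for all such probes. Among the 77 members WT intensity had a rho of 0.45 with the share kept (-0.82 over all probes measured in both) and of -0.35 with the WT coefficient of variation. The ratio of WT replicate 2 to replicate 3 had a median of 1.32 for the 19 members called lower, 1.16 for the 39 not called and 1.09 for the 19 called higher, where the array means gave 1.28. Over all probes measured in both the 3 medians were 1.33, 1.19 and 1.16. Neuron markers took 594, 815, 313 and 320 ppm on WT replicates 1 to 4, so that they too were highest on replicate 2 and lowest on replicate 3, and their part in this spread was not tested.

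Ribosomal protein genes with a pyrimidine run of at least 8 bases near the start kept a median of 3.5% of the WT intensity (34 measured in both, 0.402% to 8.59%), and those without one 2.55% (10 measured, 0.884% to 5.11%). The ranges overlapped.

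Other genes of the pathway lay on both sides. Of the ribosomal proteins named outside the symbol rule, 5 of 7 had a probe: Fau gave 0.6 ± 0.16 (adjusted p = 0.01, limma) on the quantile scale, while Rplp0, at 894.5 ± 69 (SD, n = 4) in WT, was not detected in HOMO. The counts that follow stand beside the 48.5% lower and 24.8% higher of all kept probes. Of the 10185 lower calls over those probes, 7949 were undetected in HOMO. Of 14 nucleolar assembly factors tested, 8 were lower, 5 of them undetected in HOMO, and 3 higher. Ncl and Nop56, at 932.9 ± 180.8 and 852.6 ± 137.4 (SD, n = 4) in WT, were detected on no HOMO array, and Fbl, the methyltransferase of the same snoRNPs as Nop56, gave 0.42 ± 0.11. Of 7 termination, recycling and poly(A) binding genes tested, 4 were lower and 1 higher, with Pabpc1 at -1.77 ± 0.19 (adjusted p = 4.1e-05, limma). Of 5 tRNA synthetases, 1 was lower and 2 higher, and of 4 translational control kinases, 1 was lower and 1 higher. The higher calls among these genes hold on the quantile scale and were not examined on the others.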

How the data were processed

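RNA of sorted cells was labelled by biotin cRNA amplification and hybridised to Illumina mouse WG-6 arrays, for which the labels give v1.1 and the study's methods v2.0. The authors deposited probe intensities with background subtracted in GenomeStudio, whose version is not given in the sources used here. In the deposited detection p-value columns bright probes stood at 1, so the values were read as 1 minus a detection p and those above 0.95 counted as detected. The authors also deposited log2 values, normalized per the methods by median absolute deviation in Partek, which served as an alternative. Depth has no meaning for arrays; their number, 4 per genotype, limits the precision.

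Intensities were corrected with limma's normexp using the detection values (offset 16), quantile normalized and taken to log2. The 21002 probes detected on at least 3 of 8 arrays were fitted with lmFit and eBayes (limma 3.58.1, R 4.3.3), two-sided, with Benjamini-Hochberg adjustment over all of them, called at 0.05. The fitting step alone was tested, on simulated normalized levels with known changes. The simulation held no dimming of HOMO and no background or quantile step, so it does not bear on the scaling between arrays. Probes were named by joining rows of equal values in the deposited tables and by NCBI gene numbers in the probe names. A fold written "at least" sets the WT level against the lowest detected level of the HOMO arrays. Python 3.11.15 did the remaining steps.

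The members and the gene lists were chosen with earlier results of these data known. Genes named with values were the 10 highest in WT, up to 3 with the smallest p per role among those measured in both genotypes, those undetected in WT, members of paralogue pairs, and those with an array far from its group. A further class, above the median member in WT and undetected in HOMO, held no member. Other named members were chosen after their values were seen. Alternatives were offset 50, median centring, the authors' values, other detection filters, the methods' test (scaling by median absolute deviation, probes under the 20th percentile removed), the replicate number as a block, array weights, each array left out, and the mean of a gene's probes. Some genes are not reported here and are left out of the plots, though they count in the totals.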

Additional observations from a re-analysis of the deposited data

Results flagged for a closer look

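Among the named members, 4 of 80 groups of 4 arrays had 1 array far from the other 3 by Dixon's ratio, and chance flags about 1 group in 20. The normalized log2 level of Eif2s2 on HOMO replicate 3 was 6.74, below 8.20 to 8.49 on the other HOMO arrays. Eif4ebp2 on HOMO replicate 3 was at 9.16, below 9.67 to 9.76 on the others. Eif4e2 on HOMO replicate 2 was at 11.1, below 11.28 to 11.3 on the others. Rps27a on WT replicate 2 was at 14.17, below 14.32 to 14.35 on the others.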

How the results depend on the processing

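The direction of the higher calls depended on the scaling between arrays. After median centring 18435 probes were lower and 820 higher, and 103 members lower and 0 higher. With the authors' normalized values 14818 probes were lower and 3285 higher, and 97 members lower and 0 higher. The methods' test gave 18114 probes lower and 4451 higher, and 104 members lower and 1 higher. Of all called probes 33.9% were higher on the quantile scale, 4.26% after median centring, 18.1% with the authors' values and 19.7% in the methods' test. Without a detection filter 10582 probes were lower and 8522 higher (44.6% higher), and 47 members lower and 21 higher. With detection required on 3 arrays of each genotype 1084 probes were lower and 3470 higher (76.2% higher), and 19 members lower and 18 higher, since members undetected in HOMO were no longer tested. The differences of 18 named members changed sign under these scalings: after median centring they were Eef1aknmt -3.13, Eef1d -3.72, Eef1g -3.60, Eef2 -4.66, Eif1ad -4.50, Eif2ak1 -3.65, Eif4a3 -3.82, Eif4e2 -4.38, Eif4ebp1 -4.21, Eif4ebp2 -3.06, Eif4g3 -4.62, Eif6 -3.82, Rpl23a -3.82, Rpl36a -4.24, Rpl37 -3.33, Rpl41 -3.05, Rps14 -3.50, Rps27l -4.55. With the authors' values the same genes gave Eef1aknmt -0.92, Eef1d -0.93, Eef1g -0.75, Eef2 -1.90, Eif1ad -2.14, Eif2ak1 -1.68, Eif4a3 -1.34, Eif4e2 -1.72, Eif4ebp1 -1.98, Eif4ebp2 -0.77, Eif4g3 -2.28, Eif6 -1.22, Rpl23a -1.06, Rpl36a -1.41, Rpl37 -0.48, Rpl41 -0.19, Rps14 -0.65, Rps27l -1.80. The methods' test gave Eef1aknmt -2.16, Eef1d -2.17, Eef1g -1.99, Eef2 -3.14, Eif1ad -3.39, Eif2ak1 -2.92, Eif4a3 -2.58, Eif4e2 -2.96, Eif4ebp1 -3.22, Eif4ebp2 -2.01, Eif4g3 -3.52, Eif6 -2.46, Rpl23a -2.30, Rpl36a -2.65, Rpl37 -1.73, Rpl41 -1.43, Rps14 -1.89, Rps27l -3.04. Uncalled differences near 0 also changed sign on leaving out arrays, with ranges of -0.020 to 0.069 for Eef1g, -0.0045 to 0.10 for Eef2, -0.045 to 0.14 for Eif4g3, -0.047 to 0.025 for Rpl23 and -0.034 to 0.039 for Rpl36a, which was at -0.043 with array weights. With the mean of a gene's probes Eef1aknmt gave -0.12, Eef2 -1.92, Eif4e2 -1.03, Rpl23 1.30 and Rpl37 -0.051. The median member percentile was 99.29 in WT and 99.00 in HOMO, 98.14 and 97.52 among probes with a named gene, and 98.59 and 98.17 with the median of a gene's probes. Leaving out each array gave 39 to 43 members lower and 16 to 19 higher, 9433 to 10397 probes lower and 4860 to 5407 higher, and percentiles of 99.29 to 99.30 in WT and 98.97 to 99.02 in HOMO. Samples of the same replicate number did not deviate together on the quantile-normalized scale (correlations 0.019, 0.028, -0.033 and 0.002). Most probes were near background in HOMO, so these values cannot tell whether the numbers pair samples. With the replicate number as a block 41 members were lower and 13 higher. The calls of Rpl24 and Eif4e2 were lost with this block (adjusted p = 0.111 and 0.0513, limma). WT detection stayed at 101 members with a detection p below 0.01 and with any probe of a gene. The HOMO arrays lay close to background, so a member not detected there has only a bound, and the causes of these changes were not tested.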
